A study of Mus musculus with 14 samples.

Results

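In a table of promoter methylation in clones of the mouse mammary cancer line 4T1, 1300 of 20343 genes carry 2 or more promoter rows with different levels, and these genes are described here. A promoter row is 1 line of the table: a gene name and 1 methylation level for each of 6 clones, from 0 (no CpG site read as methylated) to 1 (all read as methylated). After 145 rows that repeated the same gene and the same 6 levels had been dropped, 21965 of 22110 rows were left, and every gene still listed more than once was kept. The 1300 genes make up 6.39% of the genes and hold 2922 rows, against 19043 genes with 1 row. The table gives no coordinates, so which start of a gene a row stands for is not known. Rows of a gene may also cover overlapping DNA, so they are not always separate promoters. Rows are numbered from the lowest to the highest mean over the 6 clones.

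4T1 is a line from a mammary tumour of a mouse that spreads from the mammary gland when grafted. The study grew 23 lines from single sorted 4T1 cells, asked in a pooled setting which of them entered the blood vessels (intravasation), and profiled 6 of them in culture by whole-genome bisulfite sequencing. The labels call clones E and T intravasating; the clones labelled non-intravasating are I, K, L and P. Each clone was grown from a single cell of the same parental line, so a clone is 1 line, and the spread given below is the spread between lines. Each clone was sequenced in 2 rounds, but the table holds 1 value for a clone, and the read coverage behind it is unknown. The parental line was not analysed here. Over all 21965 rows the mean level was 0.404 in E, 0.377 in T, 0.412 in I, 0.402 in K, 0.369 in L and 0.406 in P, so that T and L, which are in different groups, were the lowest.

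Many mammalian genes have more than 1 transcription start, and a start can give an RNA with its own first exon, a protein with its own amino end, or a transcript made in other tissues. In vertebrate DNA, methylation sits mainly on the C of CpG sites. Starts within CpG islands, which are stretches where CpG sites are dense, are mostly unmethylated in all tissues, whereas starts where CpG sites are sparse are often methylated in cells that do not use them. Methylation at a CpG island start goes with its silencing, and methylation at an internal start leaves transcription from an upstream start of the same gene possible.

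The starts of 5 genes with 1 unmethylated and at least 1 methylated row are printed as examples. The genes were picked from the named genes for known alternative starts or a wide difference between rows. Each has a start with dense and a start with sparse CpG sites, which not every such gene has, as described further below. Each line gives the 250 bases before a start from RefSeq (build GRCm38.p6), 5′ to 3′ along the gene, with CpG sites in capitals. The CpG count covers those bases and the 50 after the start. Starts stand in order of CpG count, and the sequences cannot be paired with rows.

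Dennd1b encodes an exchange factor for Rab GTPases, and Spag9 a scaffold protein of JNK signalling. Each has 1 CpG-dense and 1 CpG-poor start.
Dennd1b, 36 CpG sites, chr1:138963459-138963708, plus strand: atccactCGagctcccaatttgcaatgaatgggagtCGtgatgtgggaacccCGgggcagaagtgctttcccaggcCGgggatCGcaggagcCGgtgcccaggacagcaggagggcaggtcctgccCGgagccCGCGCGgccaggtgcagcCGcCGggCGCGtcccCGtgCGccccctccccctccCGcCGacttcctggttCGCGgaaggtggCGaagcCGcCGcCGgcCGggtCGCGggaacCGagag
Dennd1b, 7 CpG sites, chr1:138967471-138967720, plus strand: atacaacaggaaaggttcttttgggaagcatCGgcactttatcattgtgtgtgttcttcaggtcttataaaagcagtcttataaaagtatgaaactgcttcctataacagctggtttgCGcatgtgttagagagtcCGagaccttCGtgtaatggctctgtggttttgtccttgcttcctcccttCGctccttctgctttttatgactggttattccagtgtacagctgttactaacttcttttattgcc
Spag9, 45 CpG sites, chr11:93995841-93996090, plus strand: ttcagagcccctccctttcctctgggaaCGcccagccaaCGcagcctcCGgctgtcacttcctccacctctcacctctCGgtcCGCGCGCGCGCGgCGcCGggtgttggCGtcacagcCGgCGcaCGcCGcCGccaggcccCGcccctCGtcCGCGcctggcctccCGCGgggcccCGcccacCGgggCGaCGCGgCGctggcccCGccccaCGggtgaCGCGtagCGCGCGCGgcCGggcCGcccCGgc
Spag9, 3 CpG sites, chr11:94043880-94044129, plus strand: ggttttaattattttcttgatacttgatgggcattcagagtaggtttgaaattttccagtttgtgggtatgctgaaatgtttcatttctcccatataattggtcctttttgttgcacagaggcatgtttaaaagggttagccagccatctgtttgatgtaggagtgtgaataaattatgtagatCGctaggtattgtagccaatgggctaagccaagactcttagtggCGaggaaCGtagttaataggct

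Pik3r1 encodes regulatory subunits of PI3-kinase, with the longest made from the most upstream start and shorter ones from internal starts. The CpG-dense start is the upstream one of the pair.
Pik3r1, 34 CpG sites, chr13:101768218-101768467, minus strand: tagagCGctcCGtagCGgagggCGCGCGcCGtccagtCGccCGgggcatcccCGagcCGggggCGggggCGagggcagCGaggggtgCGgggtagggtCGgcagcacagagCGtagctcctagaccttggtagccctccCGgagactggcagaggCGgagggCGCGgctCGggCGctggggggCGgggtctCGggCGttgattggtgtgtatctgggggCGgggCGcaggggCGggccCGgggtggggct
Pik3r1, 6 CpG sites, chr13:101692631-101692880, minus strand: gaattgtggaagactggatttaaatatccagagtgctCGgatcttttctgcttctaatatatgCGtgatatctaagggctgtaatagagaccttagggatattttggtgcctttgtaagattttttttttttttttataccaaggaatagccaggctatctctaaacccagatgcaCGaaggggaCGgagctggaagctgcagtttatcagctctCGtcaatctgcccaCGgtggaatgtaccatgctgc

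Mitf encodes the transcription factor that drives the melanocyte programme from a start of its own, and has other starts used in other tissues. Its CpG-richest start lies upstream of the other starts printed.
Mitf, 22 CpG sites, chr6:97806808-97807057, plus strand: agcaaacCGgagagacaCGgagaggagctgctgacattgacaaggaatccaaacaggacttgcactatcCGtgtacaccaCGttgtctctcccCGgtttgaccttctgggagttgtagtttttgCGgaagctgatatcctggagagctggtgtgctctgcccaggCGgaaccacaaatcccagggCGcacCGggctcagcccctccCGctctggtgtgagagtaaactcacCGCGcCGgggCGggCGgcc
Mitf, 8 CpG sites, chr6:97991533-97991782, plus strand: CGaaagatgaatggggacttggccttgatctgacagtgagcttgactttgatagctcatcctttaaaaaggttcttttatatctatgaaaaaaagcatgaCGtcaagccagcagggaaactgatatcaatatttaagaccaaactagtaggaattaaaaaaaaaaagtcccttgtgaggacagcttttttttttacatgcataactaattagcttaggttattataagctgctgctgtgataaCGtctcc
Mitf, 5 CpG sites, chr6:97929567-97929816, plus strand: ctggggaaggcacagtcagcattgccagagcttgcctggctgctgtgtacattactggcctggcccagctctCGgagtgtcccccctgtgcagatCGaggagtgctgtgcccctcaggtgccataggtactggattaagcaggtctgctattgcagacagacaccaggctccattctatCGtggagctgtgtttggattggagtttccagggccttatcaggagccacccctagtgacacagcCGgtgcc

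Dnmt1 encodes the enzyme that copies CpG methylation at replication, and has separate first exons for oocytes and for somatic cells. Its CpG-poorest start lies upstream of the others.
Dnmt1, 33 CpG sites, chr9:20952624-20952873, minus strand: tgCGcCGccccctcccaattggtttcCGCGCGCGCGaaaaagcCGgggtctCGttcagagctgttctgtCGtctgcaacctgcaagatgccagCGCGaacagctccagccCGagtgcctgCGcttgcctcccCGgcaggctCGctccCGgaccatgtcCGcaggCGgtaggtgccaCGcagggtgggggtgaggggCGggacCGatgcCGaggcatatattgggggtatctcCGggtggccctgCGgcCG
Dnmt1, 12 CpG sites, chr9:20952980-20953229, minus strand: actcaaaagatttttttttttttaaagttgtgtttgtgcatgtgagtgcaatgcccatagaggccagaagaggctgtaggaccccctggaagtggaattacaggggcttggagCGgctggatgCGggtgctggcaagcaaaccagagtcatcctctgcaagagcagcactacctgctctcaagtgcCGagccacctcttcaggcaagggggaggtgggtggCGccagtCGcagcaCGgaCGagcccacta
Dnmt1, 2 CpG sites, chr9:20959889-20960138, minus strand: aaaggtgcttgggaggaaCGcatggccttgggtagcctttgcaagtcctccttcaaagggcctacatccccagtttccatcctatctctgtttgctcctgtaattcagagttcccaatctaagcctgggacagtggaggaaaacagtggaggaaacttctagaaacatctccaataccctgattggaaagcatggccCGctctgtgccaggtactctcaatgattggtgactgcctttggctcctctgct

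Each of these 5 genes had a row under 0.1 and another over 0.5 in every clone. In the order E, T, I, K, L and P, which is kept below, the low row of Dennd1b stood at 0.0139, 0.0162, 0.011, 0.0125, 0.00365 and 0.0146, and its high row at 0.928, 0.903, 0.978, 0.916, 0.909 and 0.951. The low row of Spag9 stood at 0.0119, 0.013, 0.0145, 0.00656, 0.00959 and 0.00215, and its high row at 0.884, 0.884, 0.933, 0.91, 0.88 and 0.922. For Pik3r1 the low row stood at 0.00994, 0.0145, 0.00745, 0.0127, 0.0178 and 0.015, and the high row at 0.872, 0.873, 0.933, 0.92, 0.894 and 0.886. Low and high rows of these 3 genes were far apart in each clone, and no clone stood between them. Mitf has 1 low row, at 0.0841, 0.0701, 0.0716, 0.0892, 0.0414 and 0.0406, and 2 high rows with means of 0.837 ± 0.0316 and 0.898 ± 0.0266 (SD over 6 clones). Dnmt1 has a low row at 0.0659, 0.0733, 0.0657, 0.0429, 0.0542 and 0.0759, a row just above the low limit at 0.129, 0.136, 0.1, 0.106, 0.103 and 0.167, and a high row at 0.844, 0.803, 0.907, 0.855, 0.874 and 0.871. The 3 rows of Dnmt1 thus kept 1 order in all 6 clones.

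Most of the 1300 genes had few rows and a small difference between them. There were 1054 genes with 2 rows, 193 with 3, 41 with 4, 7 with 5, 3 with 6 (Eif5a, Islr2 and Sgk1), 1 with 7 (Arpp21) and 1 with 11 (Plec). The difference between the highest and the lowest row mean of a gene, called the row gap below, had a median of 0.128 with quartiles of 0.0292 and 0.437. It was under 0.05 in 432 genes (33.2%) and over 0.5 in 282 genes (21.7%). In 140 genes all rows lay within 0.02 of one another in every clone. Ube3a, an imprinted ubiquitin ligase gene, is one of them, with row means of 0.00845 and 0.00853. Plec, which encodes the cytoskeletal linker plectin and is known for its many alternative first exons, had row means from 0.00928 to 0.471, with 6 rows under 0.1 and none over 0.5. There were 17 rows with the same 6 levels as a row of another gene.

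Sorted by the means of their lowest and highest rows, 193 genes (14.8%) had all rows low (under 0.1), 183 (14.1%) all rows in the middle (0.1 to 0.5) and 340 (26.2%) all rows high (over 0.5). Rows on different sides of a limit were found in 142 genes with low and middle rows only (10.9%), 283 with middle and high rows (21.8%) and 159 with both low and high rows (12.2%). Of the 2922 rows, 26.2% were low and 43.3% high, against 23.8% and 38.3% of the rows of genes with 1 row. A range of at least 0.2 over the 6 clones was found in 209 of the 2922 rows (7.15%) and in 2119 rows of the other genes (11.1%). These shares were not tested.

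**Figure D1:**
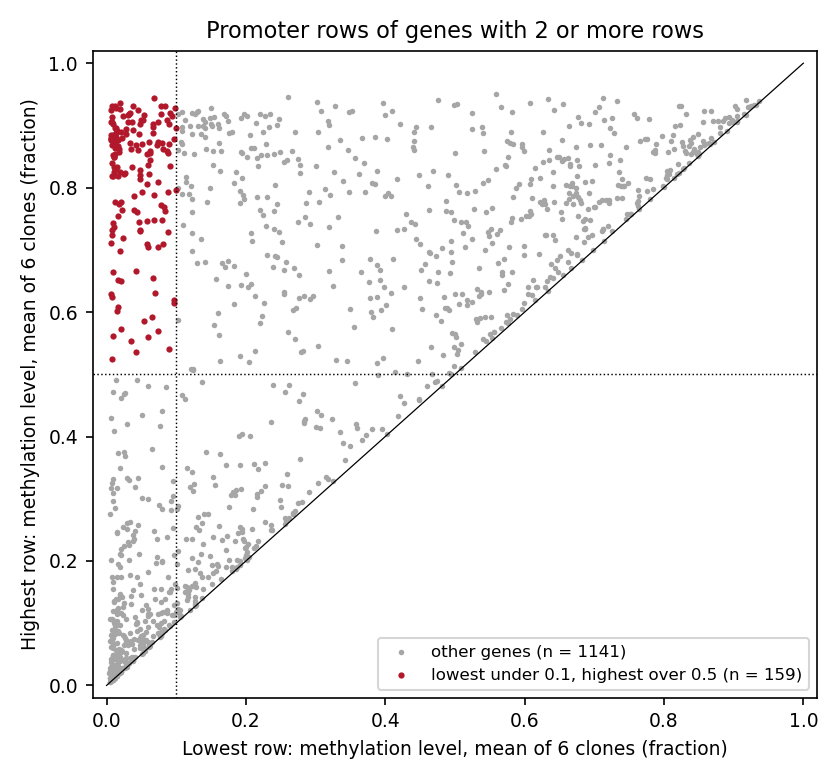
Mean methylation level over 6 clones of the lowest row (horizontal axis) and the highest row (vertical axis) of each of the 1300 genes. The 159 genes with a row under 0.1 and another over 0.5 lie in the upper left, and most other genes lie near the diagonal (median row gap 0.128).

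The 159 low-to-high genes hold 188 low, 17 middle and 183 high rows. There are 107 with 2 rows and 52 with 3 or more. Since the level chose these genes, their levels are a description. The row gap ran from 0.451 to 0.924 with a median of 0.802, 104 genes had their highest row over 0.8, and 100 had their lowest row under 0.05. In 118 genes at least 1 row stayed under 0.1 and another over 0.5 in every clone. The median SD over the 6 clones was 0.0102 for the lowest row and 0.0321 for the highest. Just inside the limits lay Cyth3 (0.099) and Prkag2 (0.09997) on the low side and Rara (0.524) and Dand5 (0.536) on the high side. Just outside lay Hexdc and Psen2, both at 0.102, and Gpank1 and Tpd52, both at 0.491. By chromosome, 155 of the 159 were autosomal and 3 on chromosome X.

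Several named low-to-high genes encode transcription factors or chromatin proteins. Of the 17 developmental transcription factors with several rows 2 were low-to-high (11.8%), against 12.2% of all 1300 genes. Pou2f1, which encodes the octamer-binding factor Oct-1, had the widest of all, 0.924: its low row stood at 0.0162, 0.00846, 0.00462, 0.0033, 0.00654 and 0.00498 and its high row at 0.95, 0.884, 0.937, 0.965, 0.903 and 0.947. Dnmt3a, a de novo DNA methyltransferase with a shorter form made from an internal start, had a low row at 0.0225, 0.00969, 0.0147, 0.00891, 0.0136 and 0.0134 and a high row at 0.916, 0.906, 0.957, 0.939, 0.914 and 0.939. With Dnmt1 this puts 2 DNA methyltransferase genes among the 159, while the related gene Dnmt3l, also with several rows, had only high rows. Tead1, a DNA-binding partner of the Hippo pathway's YAP, had row means of 0.0188 ± 0.00877 and 0.937 ± 0.0141. Ctbp2, a corepressor gene whose other start gives the synaptic ribbon protein RIBEYE, had 0.00581 ± 0.00407 and 0.924 ± 0.0214. Rbpj, the DNA-binding effector of Notch, had 0.00704 ± 0.00257 and 0.905 ± 0.0377, with its high row lowest in clone T (0.833) and at 0.899 to 0.935 in the other clones. Whsc1l1, a histone methyltransferase gene, had 0.0196 ± 0.0137 and 0.927 ± 0.0166. All of these rows kept to their side in every clone.

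Several of these regulators had more than 2 rows. Rreb1, a Ras-responsive zinc finger factor, had 3 low rows, with means of 0.00799, 0.0365 and 0.0486, and 2 high rows, at 0.907 and 0.914. Foxp1, a forkhead repressor, had 1 low row at 0.0138 ± 0.00325 and 2 high rows at 0.859 ± 0.017 and 0.888 ± 0.0179. Tcf7l2, a transcription factor of Wnt signalling, had rows at 0.00913 ± 0.00391 and 0.819 ± 0.0373. Stat5b, which carries prolactin and growth hormone signals, had rows at 0.0476 ± 0.00746 and 0.903 ± 0.00912, the latter with the smallest spread among the high rows given in this paragraph. Nuclear receptors were seen too: Rara, a retinoic acid receptor, had 2 low rows with means of 0.00823 and 0.0113 and 1 row at 0.456, 0.504, 0.476, 0.528, 0.661 and 0.52, which was under 0.5 in clones E and I. Nr2f2, an orphan receptor, had rows at 0.00734 ± 0.00264 and 0.623 ± 0.0463.

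Kinases, phosphatases and phosphodiesterases gave 7 low-to-high genes among their 27 genes with several rows. Sgk1, a serum- and glucocorticoid-induced kinase with known alternative starts, had 6 rows. Its 3 low rows had means of 0.00823, 0.00882 and 0.0107, and its 3 high rows 0.824, 0.854 and 0.869, with nothing between. Its relative Sgk3 had rows at 0.0943 ± 0.0365 and 0.915 ± 0.0218. The low row of Sgk3 went over 0.1 in clones I and P, both at 0.138. Of the 7 phosphodiesterase genes on the list with several rows, which encode enzymes that break down cyclic nucleotides, 3 were low-to-high (Pde4a, Pde4b and Pde7a), and the other 4 (Pde1a, Pde1c, Pde2a and Pde8b) had middle and high rows. Pde4b had 1 low row at 0.0527 ± 0.0132 and 4 high rows with means of 0.643, 0.649, 0.786 and 0.908, Pde4a had rows at 0.0622 ± 0.0281 and 0.844 ± 0.0268, and Pde7a at 0.0114 ± 0.00757 and 0.896 ± 0.0152. The Pde4b rows at 0.643 and 0.649 moved together over the clones, at 0.775, 0.553, 0.725, 0.663, 0.506 and 0.633 in one and 0.764, 0.56, 0.727, 0.672, 0.525 and 0.644 in the other, both lowest in clones T and L. The others were Ptprj, a receptor tyrosine phosphatase, at 0.0379 ± 0.0205 and 0.892 ± 0.0127, and Prkag2, a regulatory subunit of AMP-activated kinase, at 0.09997 ± 0.0287 and 0.797 ± 0.0343. The low row of Prkag2 went over 0.1 in clones E (0.143), T (0.109) and K (0.11), and that of Pde4a in clone L (0.104).

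Regulators of actin, small GTPases and cell contacts were a further group. Among the 32 genes of the actin cytoskeleton and its GTPase regulators with several rows, 7 were low-to-high, and among the 17 adhesion and junction genes, 4 were. The exchange factors Arhgef2, Arhgef7, Dock9 and Vav3, which activate small GTPases that act on the cytoskeleton, had low rows with means of 0.00932 to 0.0682 and highest rows of 0.664, 0.944, 0.833 and 0.698. Arhgef2 and Dock9 had an extra low row each, at 0.0397 and 0.0417. Pdlim5 and Synpo, which encode actin-associated proteins, had highest rows at 0.732 and 0.855. The low row of Synpo, with a mean of 0.088, went over 0.1 in clones L (0.125) and P (0.122). Of the contact genes, Pard3, a polarity protein of tight junctions, had rows at 0.0232 ± 0.00916 and 0.915 ± 0.0266. Magi1, a scaffold of tight junctions, had rows at 0.00629 ± 0.00323 and 0.876 ± 0.0328. Pkp3, a desmosomal plakophilin, had rows at 0.0484 ± 0.0156 and 0.73 ± 0.0356. Ctnna3, an alpha-catenin, had 1 low row at 0.0416 and high rows at 0.56 and 0.666. Sept9, a septin gene with several known isoforms, had 2 low rows, at 0.00657 and 0.083, and 2 high rows, at 0.896 and 0.906. Its row at 0.083 went over 0.1 in clones I (0.112) and P (0.111).

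Genes linked to tumours gave 4 low-to-high genes of 14. Lats2, a kinase of the Hippo pathway, had rows at 0.0336 ± 0.0158 and 0.871 ± 0.0442. Fbxw7, a substrate adaptor for ubiquitin ligation of cyclin E and Myc, had 1 low row at 0.0732 ± 0.0268 and 2 high rows at 0.898 and 0.905. The low row of Fbxw7 went over 0.1 in clone I (0.113). Akt2, a kinase of insulin signalling, had rows at 0.0796 ± 0.0404 and 0.872 ± 0.0337, and its low row went over 0.1 in clones T (0.109) and I (0.142). Pik3r1, given above, was the other.

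Among ligands, receptors and metabolic enzymes, a few are given that were chosen after their values were seen. Vegfa, the main angiogenic growth factor, had a low row at 0.0746, 0.0543, 0.0451, 0.0587, 0.0539 and 0.0379 and a high row at 0.895, 0.921, 0.93, 0.918, 0.907 and 0.929. Lif, a cytokine of the interleukin-6 family, had rows at 0.0152 ± 0.00354 and 0.602 ± 0.035. Rtn4, which encodes the Nogo proteins from separate starts, had low rows at 0.0071 and 0.00894 and a high row at 0.839 ± 0.0382. Hk1, a hexokinase with a start of its own in germ cells, had rows at 0.0157 ± 0.00697 and 0.652 ± 0.0568. Ddr1, a collagen receptor, had 1 row on each level: 0.04, 0.191 and 0.764. Pdgfra, a growth factor receptor of mesenchymal cells, is in the gene lists, and its rows at 0.0597 ± 0.0215 and 0.56 ± 0.072 were among the closest of the 159, with the high row at 0.443 in clone K.

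**Figure D2:**
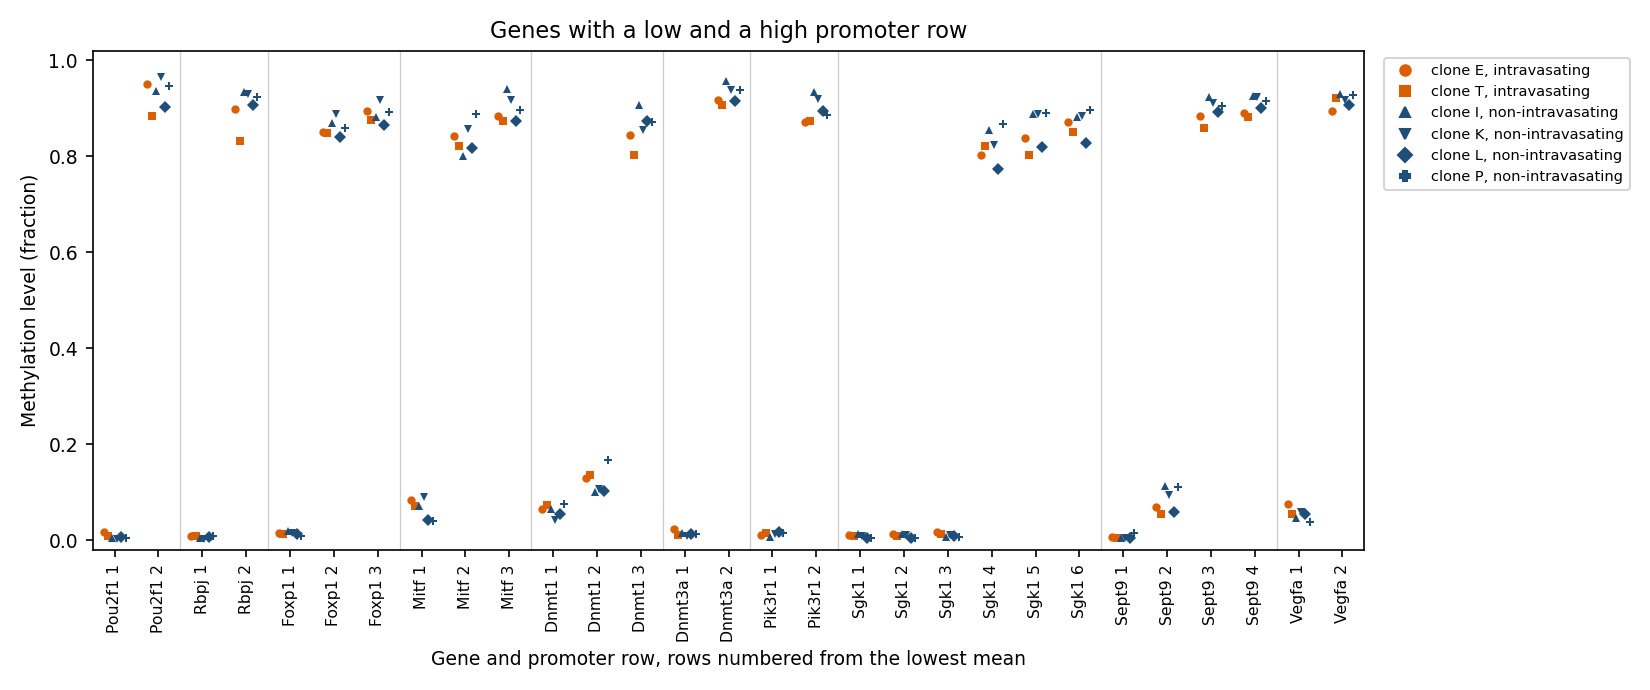
Methylation level (vertical axis, 0 to 1) of every row of 10 low-to-high genes, with 1 point for each of the 6 clones, coloured by group. The points of each row lie close together, all at 0.167 or lower or at 0.773 or higher.

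RefSeq was used to see whether genes of the 6 level classes differ in the CpG content of their annotated starts, which the table's levels do not enter. A start was called dense when the 300 bases around it had an observed over expected CpG ratio over 0.6 and a GC share over 50%, which 33.3% of the 32851 RefSeq starts met. Of the 1300 genes, 1074 had a RefSeq start under the same symbol and 870 of those (81%) had 2 or more, against 1406 of 13254 genes with 1 row (10.6%). Among low-to-high genes with 2 or more starts, 90 of 114 (78.9%) had both a dense and a non-dense start. That share was 33.3% in low-to-low, 53.3% in low-to-middle, 41.7% in middle-to-middle, 54.3% in middle-to-high and 30.3% in high-to-high genes. The median CpG count of the richest start was 28 in low-to-high and in low-to-middle genes, 30 in low-to-low, 18 in middle-to-high and 12 in high-to-high genes. The median of the poorest start was 4 in low-to-high genes, as in middle-to-high and high-to-high genes, and 19 in low-to-low genes. The outer starts lay a median of 26783 bases apart in low-to-high genes and 17863.5 in middle-to-high genes. This distance was 480 in low-to-low and 4859 in high-to-high genes. These are descriptions of annotated genes, without a test.

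**Figure D3:**
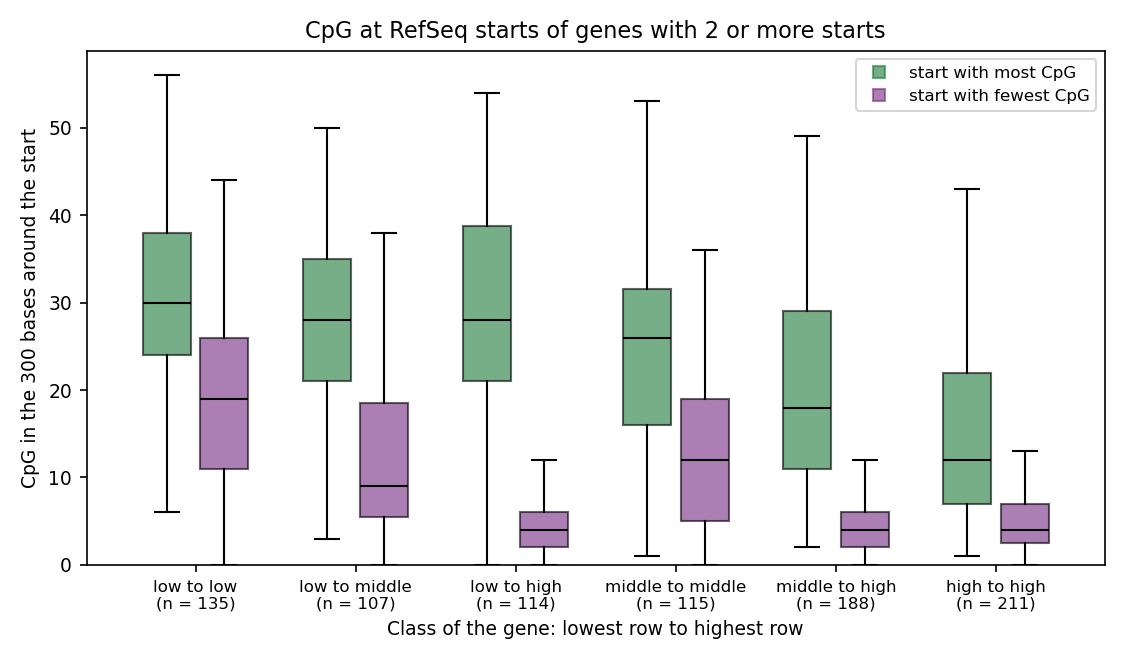
CpG count in the 300 bases around the CpG-richest and the CpG-poorest RefSeq start of each gene with 2 or more starts, by level class of its rows. Boxes show the quartiles, the line the median, and whiskers reach the farthest value within 1.5 interquartile ranges, with values beyond them not drawn. In low-to-high genes the medians are 28 and 4, in low-to-low genes 30 and 19, and in middle-to-high genes 18 and 4.

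Not every gene with a wide gap had such a pair of starts in RefSeq. Ctbp2 had starts with 8 and 3 CpG sites, and Rbpj had starts with 28 and 26 CpG sites that lay 140 bases apart, so the annotated starts of these genes do not include both kinds. Of the 114 genes, 19 had no dense start and 5 had only dense ones. Wnt7b, Dlc1, Tead1, Whsc1l1 and Sept9 had no promoter entry under their symbol.

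Gene lists drawn up for this tissue and for known alternative promoters give the wider setting, beside 12.2% low-to-high genes and a median row gap of 0.128 in all 1300. Of 89 genes reported to have alternative promoters, 30 had several rows and 6 of these (20%) were low-to-high, with a median gap of 0.188. Of the developmental transcription factors, 8 were high-to-high. The 8 Wnt, TGF-beta, Notch and FGF genes included 2 that were low-to-high, and 1 of the 10 glycosylation genes was. That gene was Gcnt2, which makes the branched I antigen from 3 alternative first exons, and its rows had means of 0.0164, 0.31 and 0.866. Of the 8 mammary epithelial and hormone genes with several rows 1 was low-to-high (Stat5b), as was 1 of 2 mesenchymal genes (Pdgfra), and 0 of 2 leukocyte genes and 0 of 1 housekeeping gene were.

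Imprinted genes, whose methylation differs between the parental copies, had 12 of 51 genes with several rows and no low-to-high gene. There were 7 in which all rows were high, 4 with middle and high rows, and Ube3a. Gnas, a G protein gene with several imprinted first exons, had rows at 0.215, 0.624, 0.869 and 0.903. Its row at 0.624 stood at 0.631, 0.419, 0.673, 0.63, 0.671 and 0.718, lowest in clone T. Snrpn had rows at 0.304, 0.417 and 0.545, and Igf2 at 0.832, 0.892 and 0.918. The olfactory and vomeronasal receptor genes had 2 of 1380 with several rows, and the 682 microRNA and small RNA genes and the 59 clustered protocadherins had 0.

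Epithelial identity was checked on markers of the cell type. The rows of 8 mammary epithelial genes (such as Epcam, Cdh1 and Krt8) had means of 0.0856 to 0.5 (median 0.172), those of 5 leukocyte genes (such as Ptprc and Csf1r) 0.575 to 0.79, and those of 7 fibroblast and mesenchymal genes 0.0597 to 0.946, of which the low end is the low row of Pdgfra. Of these markers, Cldn7 and Pdgfra have several rows, and both rows of Cldn7, a tight junction protein, were in the middle (0.28 and 0.295).

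The high rows varied more between the clones than the low rows. The rule that chose the genes limits this comparison, since a mean under 0.1 leaves a low row little room to vary. Averaged over the 159 low-to-high genes, the lowest row stood at 0.044 in E, 0.0403 in T, 0.0432 in I, 0.0375 in K, 0.0392 in L and 0.042 in P. The highest row stood at 0.804 in E, 0.797 in T, 0.827 in I, 0.826 in K, 0.796 in L and 0.826 in P. The clone with the lowest level of the high row was L in 60 genes, T in 46, E in 34, I in 8, K in 7 and P in 4. L and T were also the lowest clones over all promoters, and the part of that overall level in the high rows was not tested.

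By group, the high row averaged 0.801 ± 0.00549 in the intravasating clones (SD, n = 2) and 0.819 ± 0.0153 in the non-intravasating clones (SD, n = 4), and the difference between high and low row 0.758 ± 0.00287 and 0.778 ± 0.0146. Clone L, at 0.757 for that difference, lay within the range of the intravasating clones, E at 0.76 and T at 0.756, so the groups overlapped. The difference between rows was smaller in the intravasating mean in 116 of the 159 genes (73%), against 717 of all 1300 genes (55.2%). Of the rows over 0.8, 83.4% in genes with several rows and 80.7% in genes with 1 row were lower in the intravasating mean. The median differences were -0.0164 and -0.0148. The lowest clone in these rows was the non-intravasating L in 51.1% and 53.7%, T in 28.2% and 29.7%, and E in 12.9% and 10.5%. For the highest rows of the low-to-high genes, which include rows between 0.5 and 0.8, 74.8% were lower in the intravasating mean. Their median difference was -0.0208. Whether the narrower gaps follow from the level of high rows was not tested.

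Clones differed in the gap between rows in a small set of genes. The difference between a gene's highest-mean and lowest-mean row was taken in each clone. Its range over the 6 clones had a median of 0.0884 in all 1300 genes and reached 0.3 in 36 of them (2.77%). Just inside lay Mgat1 (0.301) and Fam169a (0.302), and just outside Bdh1 (0.296) and Dgkz (0.29). Without clone L the count was 20. Clone L lay farthest from the median in 15 of the 36, T in 6, K in 6 and E, I and P in 3 each. The lowest row had the wider range in 21 and the highest row in 15. In 9 of the 36 genes, among them Gcnt1, Car1 and Klrk1, the 2 rows changed order between clones. The order changed in 242 of all 1300 genes, of which 1 had a row gap of at least 0.2.

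Of the 36 genes, 1 was also low-to-high, Wnt7b, a secreted Wnt ligand of epithelia. Its lowest row stood at 0.0353, 0.014, 0.0171, 0.0335, 0.0261 and 0.0129 and its middle row at 0.023, 0.0436, 0.0646, 0.0561, 0.147 and 0.0661. Its highest row stood at 0.907, 0.882, 0.922, 0.643, 0.418 and 0.544. Clones E, T and I were thus near 0.9 at this row and clones K, P and L well below it, while the lowest row was under 0.04 in all 6. Clone I, which is non-intravasating, stood with the intravasating clones. At the middle row, which is low, clone L was the highest.

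Dlc1, which encodes a GTPase-activating protein and is a known tumour suppressor, had the widest range of the row difference, 0.556. Its lowest row stood at 0.62, 0.26, 0.655, 0.742, 0.715 and 0.589, and its other rows had means of 0.785 ± 0.0231 and 0.87 ± 0.0393. Only the lowest row was low in clone T, by 0.395 below the median of the other clones, while the row at 0.785 lay 0.0199 below. A shift of at least 0.3 in 1 clone with another row of the gene within 0.1 was found in 3 genes: Dlc1 in T, Klrk1 in T and Phyhipl in L. Klrk1, the gene of the natural killer receptor NKG2D, stood at 0.729, 0.347, 0.563, 0.736, 0.583 and 0.661 at its higher row. Phyhipl stood at 0.55, 0.656, 0.604, 0.609, 0.287 and 0.646 at its lower row and at 0.95 ± 0.0132 at the other. With a limit of 0.2 there were 37 such genes, of which 12 in clone T were all lower and 13 in clone L comprised 8 lower and 5 higher.

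Other rows stood apart in clone T or clone L. Nedd9, a scaffold of focal adhesions tied to cell migration, had a higher row at 0.763, 0.484, 0.758, 0.714, 0.822 and 0.823, lowest in T, and a lower row at 0.168 to 0.249. Arhgap6, a GTPase-activating protein gene on chromosome X, had a lower row at 0.13, 0.154, 0.136, 0.148, 0.428 and 0.165, highest in L, and its other row stood at 0.806 to 0.899. Tslp, an epithelial cytokine, had a lower row at 0.239, 0.158, 0.155, 0.33, 0.419 and 0.364, so that K, L and P were above E, T and I. Clone L was thus low at Phyhipl and Wnt7b and high at Arhgap6 and Tslp, that is, its shifts ran both ways.

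Glycosylation genes gave 2 of the 36. Gcnt1, which starts the core branch of O-glycans, had 3 rows, of which the highest stood at 0.654, 0.631, 0.568, 0.613, 0.323 and 0.476 and the lowest at 0.541, 0.339, 0.486, 0.524, 0.453 and 0.446. In clone L the highest-mean row was therefore below the lowest-mean row. Mgat1, which starts complex N-glycans, is described with the groups below.

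Aldh7a1, an aldehyde dehydrogenase gene, and Phax, an RNA export adaptor gene, overlap on chromosome 18 in RefSeq and had nearly the same values. The higher row of Aldh7a1 stood at 0.434, 0.474, 0.457, 0.386, 0.69 and 0.609, and that of Phax at 0.416, 0.451, 0.449, 0.353, 0.686 and 0.574. Both were highest in L and P, and the 2 genes are not separate observations. Zfp600, a zinc finger gene, had a higher row at 0.25, 0.182, 0.75, 0.278, 0.25 and 0.2, with clone I far from the rest and its lower row also highest in I, at 0.263.

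**Figure D4:**
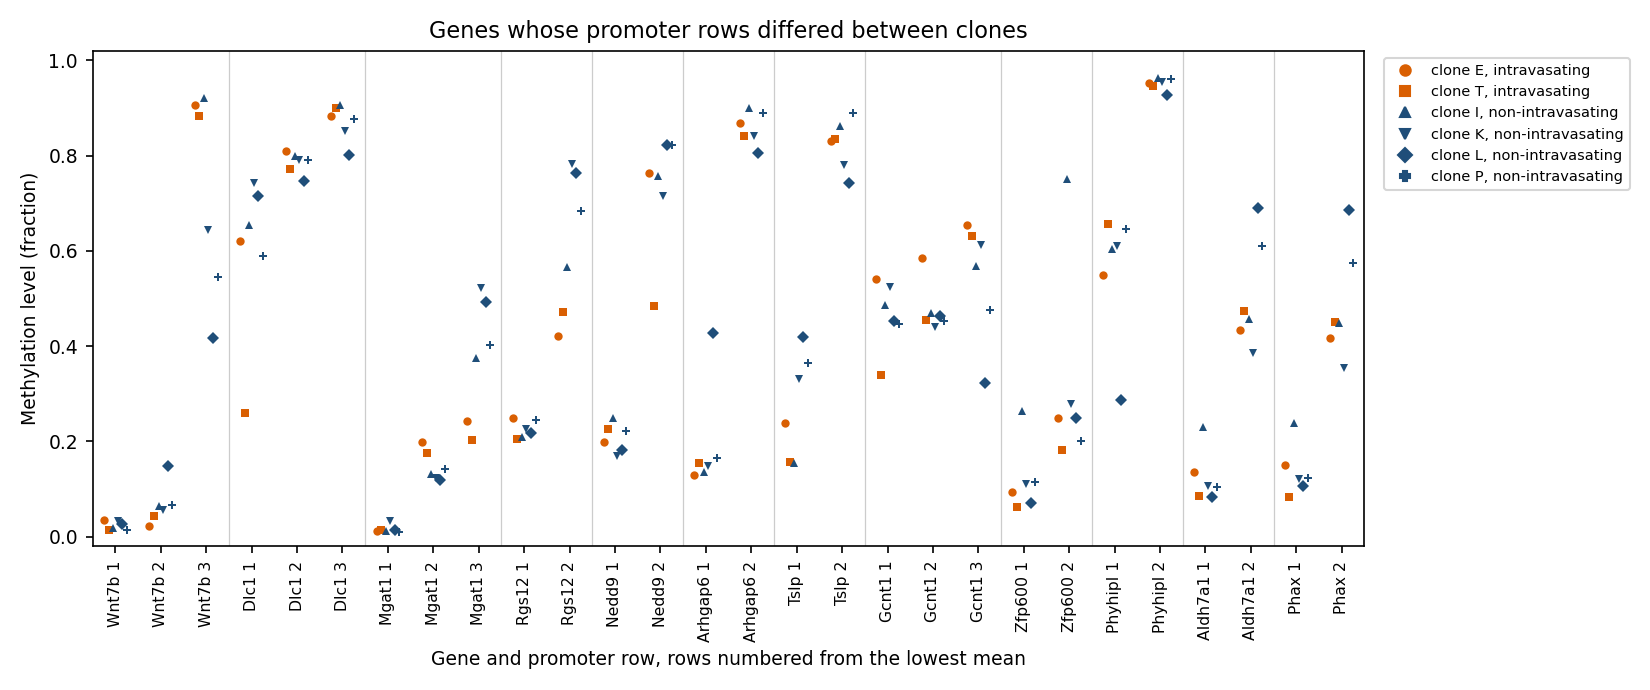
Methylation level (vertical axis, 0 to 1) of every row (horizontal axis) of 12 genes whose rows differ between clones. Each row has 1 point for each of the 6 clones, coloured by group. At 1 row each, Dlc1 and Nedd9 are lowest in clone T, Phyhipl is lowest in clone L and Arhgap6 is highest in clone L. Wnt7b has 1 row near 0.9 in E, T and I that is at 0.643 or lower in K, L and P.

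The series was built to compare intravasating with non-intravasating clones, and no promoter of the genes with several rows passed the test of that comparison. With limma on the levels and Benjamini-Hochberg adjustment over all 21965 rows, 0 of 2922 rows had an adjusted p under 0.05, against 2 of all rows (0.00911%). Before adjustment, 108 rows (3.7%) had a limma p under 0.05, 32 higher and 76 lower in the intravasating clones, which is near the 3.93% of all rows. Without clone L, 224 of the 2922 rows had such an unadjusted limma p, and still 0 passed after adjustment. The share over all promoter rows without clone L was not computed, so this count cannot be read as particular to these genes. The levels of the 2 groups did not overlap in 348 rows (11.9%), 128 higher and 220 lower, near the 11.2% of all rows. With 2 clones against 4, an exact permutation test has 15 splits and could not reach 0.05. On simulated levels, limma called 17.5% of rows changed by 0.1, 40.5% of those changed by 0.2 and 91.5% of those changed by 0.4. For simulated row differences these shares were 37.5%, 79% and 98.5%. A row that was not called is therefore not shown to be alike in the groups.

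The difference between rows was tested in the same way over the 1300 genes, to ask whether it differs between the groups. This difference is signed, highest-mean minus lowest-mean row, and turns negative in a clone where the rows change order. A wider or narrower gap below means a higher or lower signed difference. By limma 0 genes (0%) had an adjusted p under 0.05, the smallest being 0.685. At an unadjusted limma p under 0.05 there were 91 (7%), 32 with a wider and 59 with a narrower gap in the intravasating clones. The groups did not overlap in 202 genes (15.5%). Among the low-to-high genes 18 (11.3%) had such an unadjusted p and 35 (22%) did not overlap.

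Among the gaps with the smallest unadjusted limma p, those of Ncoa7, Mgat1 and Zfp868 were narrower in the intravasating clones. Ncoa7, a coactivator gene of nuclear receptors with a known short form from an internal start, had a low row at 0.0153 to 0.0223 and a high row at 0.698, 0.701, 0.826, 0.809, 0.826 and 0.783. Both intravasating clones were below all 4 others at this row. The row difference was lower by 0.111 in the intravasating clones, which is -0.111 ± 0.0195 (SE; limma adjusted p = 0.685). Mgat1 had 3 rows, of which the lowest stayed at 0.0103 to 0.0337, the next stood at 0.2, 0.176, 0.132, 0.124, 0.118 and 0.142, and the highest at 0.244, 0.203, 0.375, 0.523, 0.492 and 0.403. Clones E and T were the lowest at the highest row and the highest at the row below it, with no overlap at either, and the difference in row gap was -0.221 ± 0.0474 (SE; limma adjusted p = 0.685). The gap of Zfp868 differed by -0.03 ± 0.0072 (SE; limma adjusted p = 0.685). The rows of Zfp868, a zinc finger gene, had close means of 0.138 and 0.155, so its gap was small in every clone.

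Among the signed row differences that were higher in the intravasating clones, the 4 with the smallest p differed between the groups by less than 0.1. Rab34, a small GTPase, differed by 0.0306 ± 0.00709 (SE), Cd160 by 0.065 ± 0.0154, Frem1, a basement membrane protein, by 0.0738 ± 0.0183 and Arap3, a GTPase-activating protein, by 0.0319 ± 0.00853, each with a limma adjusted p of 0.685. In Cd160, a receptor of lymphocytes, both rows were over 0.6 in every clone, and their difference was negative in L (-0.0061) and P (-0.0305). The rows of Rab34 had means of 0.0862 and 0.119. Those of Arap3 had means of 0.8 and 0.802 and changed order, with differences of 0.0239, 0.0212, -0.0111, -0.0272, 0.00205 and -0.00123. The Arap3 rows were thus farthest apart in the non-intravasating clone K.

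Rgs12, which encodes a regulator of G protein signalling, Dlc1 and Wnt7b differed by more in size with a wider spread. The higher row of Rgs12 stood at 0.421, 0.471, 0.565, 0.783, 0.763 and 0.684, lower in E and T than in the other 4 clones, and its lower row at 0.205 to 0.25 in all. Its gap differed by -0.255 ± 0.0677 (SE; limma adjusted p = 0.685). The gap of Dlc1 differed by 0.269 ± 0.116 (SE; limma adjusted p = 0.714), through the low level of clone T at its lowest row. The gap of Wnt7b differed by 0.261 ± 0.134 (SE; limma adjusted p = 0.825). For Wnt7b the intravasating clones were at 0.872 and 0.868 and the others at 0.905, 0.609, 0.392 and 0.531, so that clone I lay above both intravasating clones. Only gaps with a range of at least 0.1 over the clones were then tested, a filter that selects on the quantity tested. Limma called the gaps of Wnt7b (adjusted p = 0.000291), Dlc1 (adjusted p = 0.00403) and Rgs12 (adjusted p = 0.0266), and no other gap among those left. With the filter the SE was 0.0518 for Wnt7b, 0.0617 for Dlc1 and 0.0669 for Rgs12, against 0.134, 0.116 and 0.0677 without it. The Wnt7b gap had an SD of 0.217 in the non-intravasating clones. For Wnt7b and Dlc1 these p-values thus do not measure the gene's own spread between clones. No group difference is read from these calls.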

How the data were processed

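Whole-genome bisulfite libraries of cultured clones were made from sonicated DNA with methylated adapters and sequenced in paired ends, per the labels' protocols. The deposited promoter table gives a methylation fraction for each gene row and clone. For the aligner, the promoter window and the joining of the 2 rounds, nothing is stated in the sources used here. Named without a role in the submitters' processing notes are mm10, bedtools and DESeq. The table carries no read counts, so coverage is unknown and no counting interval is given; a level from few reads cannot be told from one from many. Clones, taken from the column names, were the replicates. Whether their cultures were separate beyond the single-cell origin is not stated, so p-values measure only the spread between these clones. The p-values of Wnt7b and Dlc1 under the range filter do not measure even that, as given with those genes.

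Rows repeating a gene and its 6 levels were dropped. Fractions were compared between 2 intravasating and 4 non-intravasating clones with limma 3.58.1 in R 4.3.3 (lmFit, eBayes with a mean trend, Benjamini-Hochberg), over all rows and, for row differences, over all genes with several rows; the code was tested on simulated data. CpG counts came from the RefSeq promoter table (GRCm38.p6, 250 bases before to 50 after a start), and 1236 of the 1300 names matched a RefSeq symbol, 61 a synonym and 3 neither. Named genes were the 12 widest low-to-high genes and those in a gene list, the 12 with the widest range of row difference, up to 2 shifted genes per clone, the 4 row differences with the smallest p in each direction, and Wnt7b and Mgat1; predicted genes were skipped, and some genes under this rule are not reported here. Genes outside the rule were chosen after their values were seen: Vegfa, Lif, Rtn4, Hk1, Ddr1, Rara, Nr2f2, Plec, Ube3a, Gnas, Snrpn and Igf2. The members and gene lists were chosen with earlier results of these data known. Alternatives were other limits, scales, filters and left-out clones. The list of hypomethylated regions was not used.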

Additional observations from a re-analysis of the deposited data

Results flagged for a closer look

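Among the named genes, 142 rows were checked for a non-intravasating clone far from the other 3, judged by its gap to the nearest clone over the range of the 4. This picked 19 rows (13.4%) of 18 genes. Chance picks about 1 in 20 rows, but some of these genes were named because clones stand apart in them, so the share cannot be read against that rate. The clone was L in 10, I in 3, P in 4 and K in 2.

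Clone L was high at Arhgap6 (0.428), at the middle row of Wnt7b (0.147), at a low row of Rreb1 (0.0759) and at the lowest row of Gcnt2 (0.0244). It was low at Phyhipl (0.287), at the lower row of Frem1 (0.468), at the middle row of Dlc1 (0.746), at the highest row of Gcnt2 (0.792), at a high row of Sgk1 (0.82) and at the high row of Arhgef7 (0.925). Clone I was high at the higher row of Zfp600 (0.75) and at the lower rows of the overlapping genes Aldh7a1 (0.23) and Phax (0.239). Clone P was high at the middle rows of Dnmt1 (0.167) and Ctnna3 (0.618) and at the lowest row of Sept9 (0.0148), and low at the high row of Akt2 (0.811). Clone K was high at the lower row of Klrk1 (0.582) and at the lowest row of Mgat1 (0.0337).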

How the results depend on the processing

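The number of low-to-high genes moved from 159 to 100 with a low limit of 0.05 and to 245 with 0.2, and ran from 156 to 162 with a clone left out, of which at least 155 were shared with the full set. The number of genes whose row difference ranged widely moved from 36 to 140 at a limit of 0.2 and to 7 at 0.4. It was 20 without clone L, and 20 to 32 over the 6 left-out clones. Single-clone shifts moved from 3 to 37 genes at 0.2 and to 1 at 0.4. The group difference in the row gap of low-to-high genes ran from -0.0271 to -0.0164 with a clone left out. By limma, 0 rows and 0 row differences passed on the logit and arcsine scales, without a mean trend, with clones centred, on autosomes, at an adjusted p under 0.1 and with any clone left out. A filter kept only rows, or row differences, with a range of at least 0.1 over the clones. Under it 2 rows passed (Wnt7b at a limma adjusted p of 0.00328 and Rgs12 at 0.0358). So did 3 row differences, Wnt7b's with a limma adjusted p of 0.000291 (0.000291 to 0.901 over its alternatives). That filter selects on the quantity tested and leaves fewer tests. For the Wnt7b difference it also lowered the SE from 0.134 to 0.0518, so that p does not measure the gene's own spread between clones. Keeping repeated rows gave 1408 genes, and merging rows within 0.02 gave 1160. No paired analysis was possible because the table holds 1 column for a clone and no replicate number joins clones of the 2 groups. Coverage is unknown, so which levels rest on few reads cannot be told.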
